A study of Mus musculus with 16 samples.

Results

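The genes described here are the SMAD transducers and the SMAD repressors of the TGF-β and BMP pathways. They were chosen by name, as the 8 SMAD genes of the mouse and the repressor genes Ski and Skil, which makes 10 genes of the 55573 in the count table. All 10 passed the filter on low counts and were among the 19955 genes tested. RNA came from the ventricles of 16 male mice in 4 groups of 4, and every mouse carried both the aMHC-MerCreMer transgene and Trbp-Flox/Flox. Control mice received corn oil and Trbp-cKO mice received tamoxifen at 30 mg/kg once daily for 5 days, from 4 weeks of age. Tamoxifen switches on the MerCreMer recombinase, which the promoter of the cardiac α-myosin heavy chain gene drives in cardiomyocytes, so other cells of the ventricle keep Trbp (Tarbp2), an RNA-binding protein. Each kind of mouse then underwent sham surgery or TAC surgery (transverse aortic constriction, which loads the left ventricle with pressure), and the heart was taken about 8 weeks later. Only Trbp-cKO mice had tamoxifen, so the drug and the deletion cannot be told apart in these groups.

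TGF-β, activin and BMP ligands bind pairs of serine/threonine kinase receptors, which phosphorylate receptor SMADs in the cytoplasm. Smad2 and Smad3 carry the TGF-β and activin signal and Smad1, Smad5 and Smad9 the BMP signal, and both kinds join the common partner Smad4 to enter the nucleus and bind DNA. Smad6 and Smad7 are inhibitory SMADs, induced by the pathway, that block the receptors and recruit ubiquitin ligases, while Ski and Skil (SnoN) hold SMAD complexes in a repressed state with histone deacetylases. In the pressure-loaded heart the Smad2 and Smad3 branch is known for its role in fibrosis.

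Libraries held 45166994 to 68274222 counts. Tarbp2 lay between 21.1 and 33.3 CPM (the count of a gene relative to the TMM-scaled total of its library) in the 8 control hearts and between 7.14 and 11.4 CPM in the 8 Trbp-cKO hearts, without overlap. Cardiomyocyte markers summed to between 19221 and 53076 CPM, and lymphocyte markers to at most 5.42 CPM. Atrial markers summed to 4.42 to 7.88 CPM in Trbp-cKO TAC hearts and to 1.21 to 2.95 CPM in the other groups. Fibroblast markers summed to 1531 to 1628 CPM in control sham and 1650 to 2196 CPM in Trbp-cKO sham hearts. Smooth muscle and pericyte markers summed to 853 to 1023 and 1106 to 1357 CPM there. Activated fibroblast sums did not overlap between those sham groups either, while the other marker sums did. Control TAC replicates 1 and 2 stood apart, with 38.2% and 38.8% of counts on the mitochondrial chromosome against 18.2% to 26.3% in the other 14 hearts. In those 2 hearts the cardiomyocyte markers summed to 24546 and 19221 CPM and endothelial markers to 2292 and 2379 CPM, against 48265 and 48497 CPM, and 1196 and 1232 CPM, in replicates 3 and 4. A score of circadian clock genes (morning-arm minus evening-arm genes, in SD units) ran from 1.11 to 3.14 in control sham hearts, from -0.89 to 0.04 in control TAC hearts, from -2.27 to -1.73 in Trbp-cKO sham hearts and from -1.10 to 2.17 in Trbp-cKO TAC hearts. It did not overlap between sham and TAC hearts of either kind of mouse, nor between the 2 sham groups, so the clock genes cannot be told apart from TAC in control or in Trbp-cKO hearts, or from the deletion in sham hearts. All 3 members called in those comparisons lost the call with this score as a covariate. For the TAC effect averaged over both kinds of mouse, the same 3 members kept their call with it. In whole ventricle, fewer cells of a type and less RNA per cell cannot be told apart.

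In control sham hearts, Ski was the most abundant of the 10 genes per length of exon, at 14.5 ± 0.67 CPM per kb (SD, n = 4). Smad4 followed at 11.1 ± 0.56 CPM per kb and Smad5 at 5.67 ± 0.14 CPM per kb. Smad7 (4.70 ± 1.06), Smad3 (4.30 ± 1.04) and Smad6 (4.03 ± 0.52 CPM per kb) came next, and neighbours in this stretch differed by less than the SD. Skil was at 3.28 ± 0.61, Smad1 at 2.80 ± 0.14 and Smad2 at 2.39 ± 0.21 CPM per kb. Smad9 stood lowest at 0.42 ± 0.10 CPM per kb. Ski, Smad4 and Smad9 held the first, the second and the last place in every group. With the length of the longest transcript in place of all exons, Skil moved to 4.73 and Smad1 to 4.65 CPM per kb, which puts both beside Smad3 and Smad7. Of the members, 3 lie on 1 chromosome (GRCm38): Smad2 at chr18:76241580-76310963, Smad4 at chr18:73639009-73703780 and Smad7 at chr18:75367529-75395935.

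After TAC, Smad3 fell in control hearts, and Ski and Skil rose in Trbp-cKO hearts, while the members as a group were called at a rate near that of all genes. The question is whether pressure load, with or without Trbp in cardiomyocytes, alters the transcripts of the machinery that carries the signal. In control hearts 1 of 10 members passed an adjusted p of 0.05 (edgeR quasi-likelihood test, Benjamini-Hochberg over all genes), against 6.29% of all genes tested, and 0 of 10 also passed the fold threshold of 0.8 on the log2 scale, against 3.75%. Under an unadjusted 0.05 lay 2 members, Smad3 and Smad2. In Trbp-cKO hearts 2 of 10 passed, against 9.94% of all genes, and 1 of them, Skil, also passed the fold threshold, against 5.57%. The median log2 fold change of the 10 members was 0.09 in control hearts and 0.11 in Trbp-cKO hearts, against 0.02 and -0.00 for all genes. The TAC effect averaged over both kinds of mouse passed for 3 of 10 members (Smad3, Ski and Skil), against 16.6% of all genes, and a test for any difference among the 4 groups passed for the same 3 genes, against 17.5%. Without both high-mitochondrial hearts, Smad3 alone passed for the average TAC effect. Over 26 alternatives the average TAC call was kept in 15 for Ski and in 22 for Skil. Leaving out 1 heart moved the count for any difference in 9 of 16 fits.

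Between Trbp-cKO and control hearts no member passed. In sham hearts the count was 0 of 10, against 1.68% of all genes, with 1 member (Smad4) under an unadjusted p of 0.05 as against 13.7% of all genes. In TAC hearts it was 0 of 10, against 5.53% of all genes, with 1 member (Ski) under an unadjusted 0.05 as against 21.4%. No member was without overlap there, against 10% of all genes. The interaction, which asks whether the TAC effect differs between the kinds of mouse, passed for 0 of 10 members against 1.05% of all genes, with 2 members (Ski and Smad4) under an unadjusted 0.05 as against 15.4%. The deletion effect averaged over both surgeries passed for 0 of 10 members against 5.45% of all genes, with 0 under an unadjusted 0.05 as against 20.5%. DESeq2 also called 0 members in these 4 comparisons, and edgeR's exact test 0 in sham and in TAC hearts. With the mitochondrial share as a covariate, Smad4 passed for the deletion in sham hearts and for the average deletion effect. Ski passed for the deletion in TAC hearts under that covariate. The TAC comparisons and the deletion comparisons use the same 16 hearts, so they share samples with one another.

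**Figure D1:**
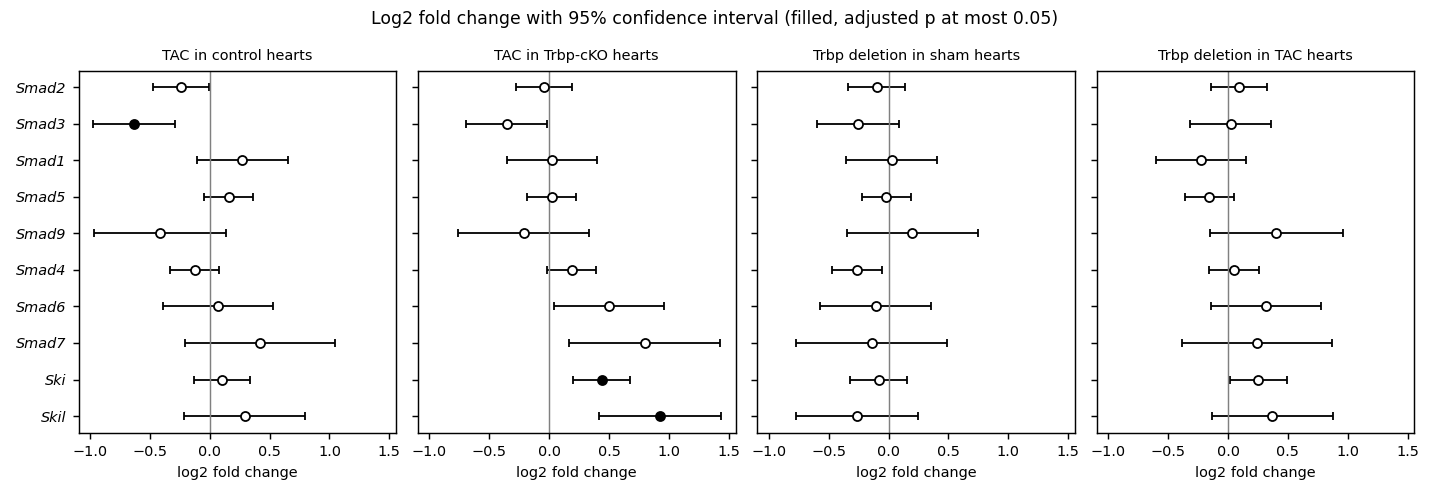
Log2 fold change of each of the 10 genes (rows) in the 4 comparisons of pairs of groups (panels), with its 95% confidence interval. Filled points passed an adjusted p of 0.05: Smad3 at -0.63 for TAC in control hearts, and Ski at 0.44 and Skil at 0.93 for TAC in Trbp-cKO hearts.

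Smad3, the TGF-β receptor SMAD of the fibrotic programme, was the only receptor SMAD to pass in the fit of all 16 hearts without covariates. It is encoded on the minus strand at chr9:63646767-63757994 (GRCm38). The 250 bases before its start, at chr9:63757995-63758244, are shown from RefSeq (GRCm38.p6) because it was the member that passed after TAC in control hearts. They hold no copy, on either strand, of the palindromic SMAD element GTCTAGAC, of the SMAD box CAGAC or of the GC-rich element GGCGCC.
Smad3 promoter: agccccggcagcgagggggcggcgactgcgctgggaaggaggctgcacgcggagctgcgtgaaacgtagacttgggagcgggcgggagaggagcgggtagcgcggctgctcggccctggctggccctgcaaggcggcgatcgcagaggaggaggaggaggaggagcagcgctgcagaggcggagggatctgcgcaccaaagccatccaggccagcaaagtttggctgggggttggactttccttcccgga

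The 4 control sham hearts had 31.8, 18.6, 24.1 and 20.8 CPM of Smad3, and the 4 control TAC hearts 14.5, 18.6, 14.9 and 13.5 CPM. The groups did not overlap, though the highest TAC heart, at 18.57 CPM, lay just under the lowest sham heart, at 18.63 CPM. Smad3 fell by 0.63 on the log2 scale after TAC in control hearts (SE 0.16, 95% interval -0.97 to -0.29, adjusted p = 0.0315, edgeR quasi-likelihood test), and 8.78% of all genes were lower without overlap in this comparison. The adjusted p was 0.0811 without control sham replicate 1, 0.0731 without control sham replicate 3 and 0.0958 without control TAC replicate 1. Without both high-mitochondrial hearts the log2 fold change was -0.75 with an adjusted p of 0.103. With the clock score as a covariate it was -0.39 with an adjusted p of 0.224. A replicate block gave -0.62 with an adjusted p of 0.0814, and only the 2 groups in the fit gave -0.64 with 0.0973.

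In Trbp-cKO hearts Smad3 was at 19.3, 20.2, 19.1 and 21.3 CPM after sham surgery and at 13.4, 13.1, 17.8 and 18.04 CPM after TAC. Again no TAC heart reached a sham heart, and 8.14% of all genes were lower without overlap in this comparison. The log2 fold change of -0.36 (SE 0.16) did not pass (adjusted p = 0.194), and with library size as the only scaling the groups overlapped. The difference between the 2 TAC effects was 0.28 on the log2 scale (95% interval -0.20 to 0.76, adjusted p = 0.588). Averaged over both kinds of mouse, Smad3 fell by 0.49 on the log2 scale (SE 0.11, adjusted p = 0.00785), and this call was kept in all 26 alternatives in which it could be computed. Between Trbp-cKO and control hearts the log2 difference was -0.26 (95% interval -0.59 to 0.08) after sham surgery and 0.02 (-0.32 to 0.36) after TAC.

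Smad2, the partner of Smad3 in the same branch, had 18.9, 22.7, 20.1 and 22.3 CPM in control sham hearts and 14.9, 16.7, 21.9 and 17.7 CPM in control TAC hearts. Its TAC hearts were mostly the lower ones, but replicate 3 lay inside the sham range. The log2 fold change was -0.24 (SE 0.11, adjusted p = 0.182), and -0.36 with an adjusted p of 0.0346 without that replicate. It was -0.17 with 0.474 without control TAC replicate 1 and -0.086 with 0.911 without both high-mitochondrial hearts, and it passed in 1 of 28 alternatives. Trbp-cKO hearts spanned 17.8 to 21.1 CPM after sham surgery and 18.3 to 20.2 CPM after TAC, with a log2 fold change of -0.04 (95% interval -0.28 to 0.19).

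**Figure D2:**
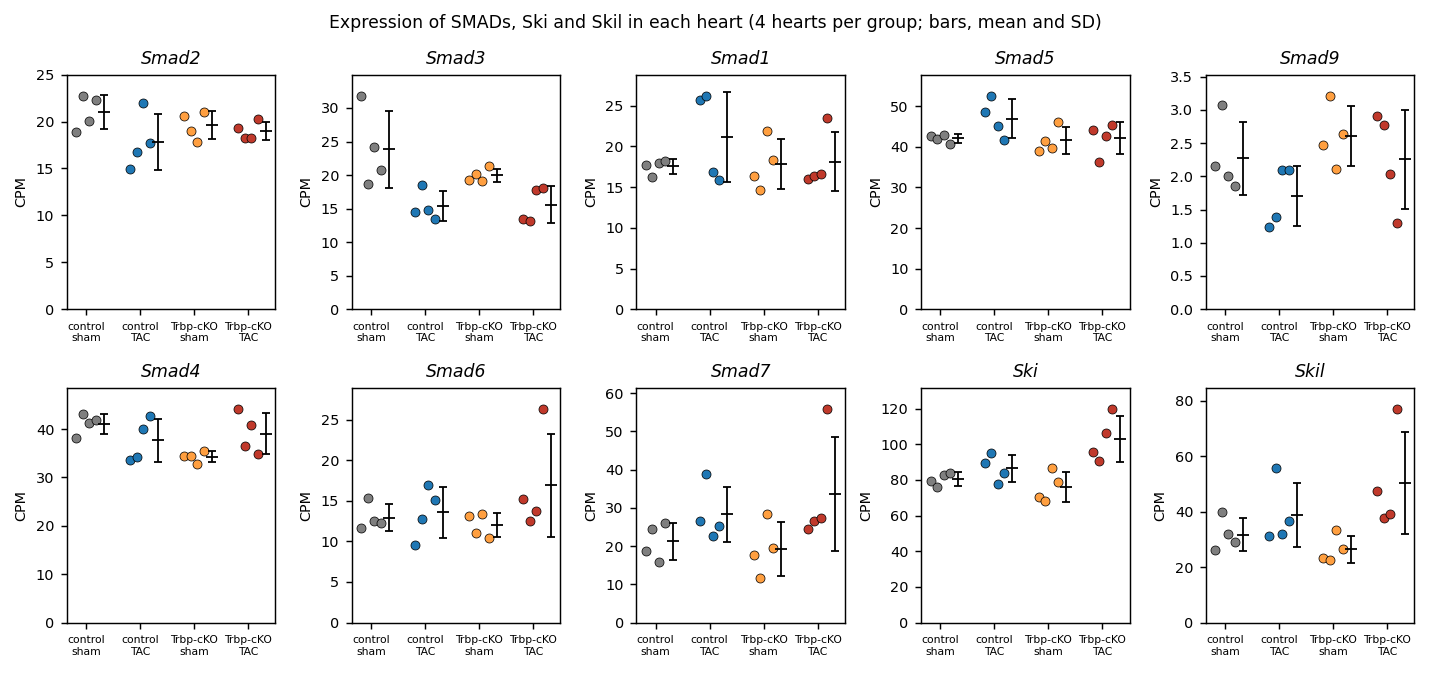
CPM of each of the 10 genes (panels) in every heart, by group (points; bars, mean and SD of 4 hearts; the y axis starts at 0). No TAC heart reaches a sham heart of its kind of mouse for Smad3, Ski and Skil have their highest group means in Trbp-cKO TAC hearts though control TAC replicate 2, at 95.1 CPM of Ski and 55.8 CPM of Skil, lies among them, and replicate 4 of that group, at 55.8 CPM of Smad7 and 76.97 CPM of Skil, lies above the other 15 hearts for both genes.

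The BMP receptor SMADs Smad1 (chr8:79338395-79399518), Smad5 (chr13:56703010-56742377) and Smad9 (chr3:54755582-54801257) did not pass in any comparison. Smad5, the most abundant of them, was at 40.6 to 43.0 CPM in control sham hearts and 41.6 to 52.6 CPM in control TAC hearts (log2 fold change 0.16, SE 0.09, adjusted p = 0.286). In Trbp-cKO hearts it was at 38.9 to 46.1 and 36.4 to 45.4 CPM (0.02, 95% interval -0.18 to 0.22), the narrowest interval of the 10 genes there. The exons of Smad5 overlap those of Gm27301 on the same strand, which share 0.679% of its 50-base sequences.

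Smad1 showed a split within groups. Control TAC replicates 1 and 2 had 25.7 and 26.2 CPM, and replicates 3 and 4 had 16.9 and 15.9 CPM, against 16.2 to 18.2 CPM in the 4 control sham hearts. The first pair were the hearts with the high mitochondrial share and the high endothelial marker sum. In the other 2 groups with a high heart, the same was seen: Trbp-cKO sham replicate 3 had 21.9 CPM of Smad1 against 14.7 to 18.4 CPM in the rest, with an endothelial sum of 1733 against 1122 to 1206 CPM. Trbp-cKO TAC replicate 4 had 23.5 CPM against 16.1 to 16.6 CPM, with an endothelial sum of 1774 against 1020 to 1178 CPM. None of the 7 endothelial markers passed in any of the 4 comparisons of pairs of groups, and the part of these cells in the Smad1 values was not tested. The log2 fold change of Smad1 after TAC was 0.27 in control hearts (SE 0.18, adjusted p = 0.325), which turned to -0.10 without the 2 high-mitochondrial hearts, and 0.02 in Trbp-cKO hearts.

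Smad9, the third BMP receptor SMAD, was the least abundant member. Control sham hearts had 1.85 to 3.07 CPM and control TAC hearts 1.24 to 2.09 CPM (log2 fold change -0.42, SE 0.26, adjusted p = 0.304). Trbp-cKO hearts had 2.11 to 3.21 CPM after sham surgery and 1.302 to 2.91 CPM after TAC (-0.21, SE 0.26). Within Trbp-cKO TAC hearts the order of Smad9 was the opposite of that of Smad1, with replicate 4 the lowest at 1.302 CPM.

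Smad4, the shared partner of both branches, gave the lowest unadjusted p of the 10 genes for the deletion in sham hearts. Control sham hearts had 38.2, 43.1, 41.2 and 41.8 CPM, and Trbp-cKO sham hearts 34.5, 34.4, 32.7 and 35.5 CPM. The groups did not overlap, also with library size as the only scaling, and 6.96% of all genes were lower without overlap in this comparison. The log2 difference of -0.26 (SE 0.10, 95% interval -0.47 to -0.05) had an adjusted p of 0.219 and did not pass. With the mitochondrial share as a covariate it was -0.29 with an adjusted p of 0.0135, and with library size as the only scaling -0.16 with 0.513. It passed in 1 of 28 alternatives. After TAC the ranges met again, at 33.6 to 42.6 CPM in control hearts and 34.8 to 44.1 CPM in Trbp-cKO hearts (0.05, 95% interval -0.16 to 0.26). The TAC effect on Smad4 was -0.13 in control and 0.19 in Trbp-cKO hearts, and their difference of 0.31 did not pass (95% interval 0.02 to 0.61, adjusted p = 0.287).

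The inhibitory SMADs had their highest means in Trbp-cKO TAC hearts, and neither passed. Without replicate 4 of that group the log2 difference between Trbp-cKO and control TAC hearts went from 0.24 to -0.12 for Smad7 and from 0.32 to 0.025 for Smad6. Smad7, which brings SMURF ubiquitin ligases to the receptor, was at 18.8, 24.4, 15.7 and 26.0 CPM in control sham hearts and 26.6, 38.9, 22.7 and 25.3 CPM in control TAC hearts. Trbp-cKO hearts had 17.6, 11.6, 28.4 and 19.4 CPM after sham surgery and 24.5, 26.5, 27.2 and 55.8 CPM after TAC. Groups overlapped in both kinds of mouse, through Trbp-cKO sham replicate 3 in the latter. The log2 fold change after TAC was 0.42 (SE 0.30, adjusted p = 0.365) in control hearts and 0.80 (SE 0.30, 95% interval 0.17 to 1.43, adjusted p = 0.108) in Trbp-cKO hearts. Without Trbp-cKO sham replicate 3 the latter was 1.05 with an adjusted p of 0.0474, and it was 0.95 with 0.0190 when the mitochondrial share was a covariate. Without Trbp-cKO TAC replicate 4, the heart with 55.8 CPM, it was 0.44 with 0.358, and with the clock score as a covariate 0.37 with 0.740. It passed in 2 of 28 alternatives. The TAC effect averaged over both kinds of mouse was 0.61 (SE 0.21, adjusted p = 0.0581), with an adjusted p of 0.0278 by DESeq2 and of 0.025 to 0.207 over 26 alternatives, of which 4 passed.

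Smad6, the BMP-facing inhibitory SMAD, is encoded on the minus strand at chr9:63953076-64022059. Of the 10 members, 6 had at least 1 promoter window of 300 bases in RefSeq (GRCm38.p6) that was used, 8 windows in all. These were Smad1, Smad3, Smad5, Smad6, Smad9 and Ski, and no window of Smad2, Smad4, Smad7 or Skil was searched. Among the 6 members searched, Smad6 alone held the palindromic element GTCTAGAC, which 0.213% of 32851 such windows hold. CAGAC was in 1 and GGCGCC in 4 of the 8 member windows, against 49.6% and 11.9% of all windows, and no motif contains another. Windows of 1 gene were counted separately: Smad5 had more than 1 window, and GGCGCC was in more than 1 of them. The 70 bases around the start of Smad6, at chr9:64022040-64022109, are shown for this match, with the palindrome in capitals.
Smad6 start: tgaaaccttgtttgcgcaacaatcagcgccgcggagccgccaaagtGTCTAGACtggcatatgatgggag

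Smad6 had 11.6 to 15.4 CPM in control sham hearts and 9.58 to 16.9 CPM in control TAC hearts (log2 fold change 0.07, SE 0.22). Trbp-cKO sham hearts had 13.1, 11.04, 13.3 and 10.4 CPM, and Trbp-cKO TAC hearts 15.2, 12.5, 13.7 and 26.3 CPM. TAC replicate 2 lay inside the sham range and replicate 4 far above it. On the log2 scale the change there was 0.50 (SE 0.22, adjusted p = 0.176), and its lowest value when 1 heart was left out was 0.20.

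Ski, the repressor that binds Smad2, Smad3 and Smad4, rose after TAC in Trbp-cKO hearts. It is encoded on the minus strand at chr4:155154075-155222592, and 193 bases of its promoter window, at chr4:155222593-155222785, are shown because it passed, with the GC-rich element in capitals.
Ski promoter: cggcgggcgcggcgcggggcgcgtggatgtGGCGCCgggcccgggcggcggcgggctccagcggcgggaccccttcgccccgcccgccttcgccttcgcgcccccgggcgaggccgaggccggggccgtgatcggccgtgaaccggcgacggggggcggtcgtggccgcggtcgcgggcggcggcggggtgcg

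Trbp-cKO sham hearts had 70.5, 68.1, 86.9 and 78.8 CPM of Ski, and Trbp-cKO TAC hearts 95.9, 90.4, 106.6 and 119.7 CPM. All 4 TAC hearts lay above all 4 sham hearts, as did 9.05% of all genes in this comparison, though with library size as the only scaling the groups overlapped. Its log2 fold change was 0.44 (SE 0.11, 95% interval 0.20 to 0.68, adjusted p = 0.0199). The adjusted p was 0.0588 without Trbp-cKO sham replicate 1, 0.0710 without sham replicate 2, 0.0512 without TAC replicate 3 and 0.0538 without TAC replicate 4. With the clock score as a covariate the log2 fold change was 0.28 with an adjusted p of 0.407. With only the 2 groups in the fit it was 0.44 with an adjusted p of 0.0644.

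Control hearts had 79.4, 75.8, 83.0 and 84.0 CPM of Ski after sham surgery and 89.7, 95.1, 77.6 and 83.7 CPM after TAC. The 2 TAC hearts above the sham range were the high-mitochondrial ones. On the log2 scale the change was 0.10 (SE 0.11, adjusted p = 0.569), and the difference between the TAC effects of the 2 kinds of mouse was 0.34 (95% interval 0.00 to 0.67, adjusted p = 0.319). Between Trbp-cKO and control TAC hearts the log2 difference was 0.25 (SE 0.11, adjusted p = 0.198), or 0.42 with an adjusted p of 0.0268 with the mitochondrial share as a covariate. Without Trbp-cKO TAC replicate 4 it was 0.18 with 0.308, and it passed in 1 of 28 alternatives.

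Skil, the paralogue of Ski that is itself a target of the TGF-β signal, gave the largest log2 fold change among the 10 genes. It is encoded on the plus strand at chr3:31095058-31122577. Trbp-cKO sham hearts had 23.4, 22.4, 33.2 and 26.7 CPM, and Trbp-cKO TAC hearts 47.4, 37.6, 39.0 and 76.97 CPM. Every TAC heart lay above every sham heart, also with library size as the only scaling, as for 9.05% of all genes with TMM scaling. Skil rose by 0.93 on the log2 scale (SE 0.24, 95% interval 0.41 to 1.44, adjusted p = 0.0228). Without Trbp-cKO TAC replicate 4, the heart with 76.97 CPM, the value was 0.64 with an adjusted p of 0.0701. The adjusted p was 0.0683, 0.0747 and 0.0584 without Trbp-cKO sham replicates 1, 2 and 4, and the log2 fold change was 0.55 with an adjusted p of 0.439 with the clock score as a covariate.

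In control hearts Skil had 26.3, 39.9, 31.8 and 28.9 CPM after sham surgery and 31.1, 55.8, 31.9 and 36.7 CPM after TAC. Only control TAC replicate 2 lay above the sham range. Its log2 fold change was 0.29 (SE 0.24, adjusted p = 0.438), and the difference between the TAC effects was 0.63 (95% interval -0.08 to 1.35, adjusted p = 0.389). Trbp-cKO and control hearts differed by -0.26 (95% interval -0.77 to 0.24) after sham surgery and 0.37 (-0.14 to 0.88) after TAC. Without Trbp-cKO TAC replicate 4 the latter was 0.089, and without control TAC replicate 2 the TAC effect in control hearts was 0.061.

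Ski, Skil and Smad7 had their highest value in the same heart in 3 of the 4 groups, namely control TAC replicate 2, Trbp-cKO sham replicate 3 and Trbp-cKO TAC replicate 4. In control sham hearts Skil was highest in replicate 2, and Ski and Smad7 in replicate 4. The summed CPM of 7 activated fibroblast markers, which include the matrix genes Postn and Fn1, was also highest in those 3 hearts within their groups, at 1014, 209 and 3333 CPM. In the same 3 hearts the endothelial sum was the highest of the group (2379, 1733 and 1774 CPM), the cardiomyocyte sum the lowest (19221, 43645 and 31100 CPM) and the mitochondrial share the highest (38.8%, 25.7% and 24.9%). Over the groups the activated fibroblast sum was 105 to 124 CPM in control sham, 335 to 1014 CPM in control TAC, 164 to 209 CPM in Trbp-cKO sham and 1216 to 3333 CPM in Trbp-cKO TAC hearts. Of the 7 activated fibroblast markers 6 rose after TAC in control hearts (6.29% of all genes passed) and 7 in Trbp-cKO hearts (9.94%), and 6 were higher in Trbp-cKO than in control TAC hearts (5.53%). The part of any of these measures in the values of Ski, Skil and Smad7 was not tested.

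**Figure D3:**
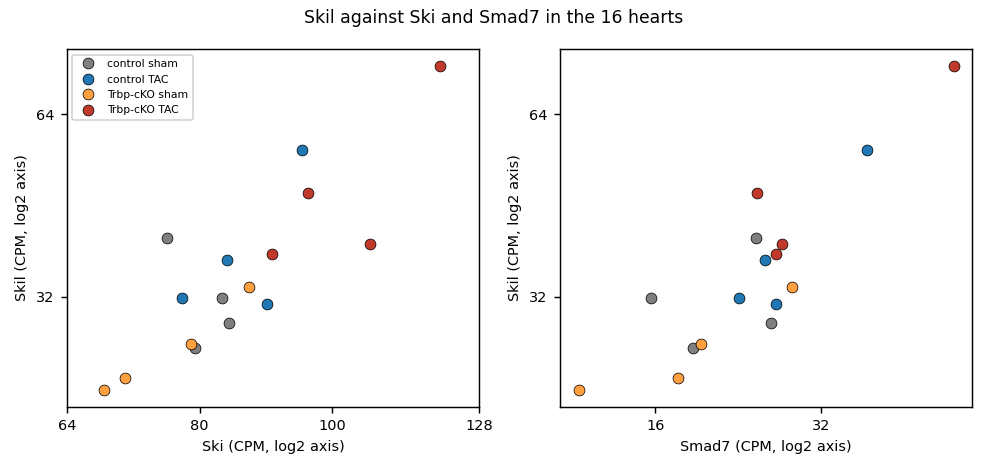
Skil against Ski (left) and against Smad7 (right) in the 16 hearts, in CPM on log2 axes, coloured by group. Trbp-cKO TAC replicate 4 is at the top right of both panels, with 76.97 CPM of Skil, 119.7 CPM of Ski and 55.8 CPM of Smad7, and the 2 Trbp-cKO sham hearts with the least Skil, at 22.4 and 23.4 CPM, are at the bottom left.

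The balance among the SMADs was described as the share of each class in the summed CPM per kb of the 8 SMAD genes of a heart, a ratio that library scaling does not touch. Smad2 and Smad3 made up 19.0 ± 2.75% (SD, n = 4) in control sham hearts and 13.5 ± 0.81% in control TAC hearts. In Trbp-cKO hearts they made up 18.3 ± 1.52% after sham surgery and 13.5 ± 1.20% after TAC. The TAC hearts, at 12.8% to 14.6% and 12.2% to 15.0%, lay below the sham hearts, at 16.3% to 22.6% and 16.1% to 19.6%, in both kinds of mouse. Smad6 and Smad7 made up 24.6 ± 3.15% and 29.5 ± 2.39% in control hearts after sham and TAC surgery, and 24.8 ± 4.47% and 33.3 ± 7.91% in Trbp-cKO hearts, with 45.1% in Trbp-cKO TAC replicate 4. Those ranges overlapped in both kinds of mouse. Smad4 held 28.7% to 31.3% of the pool as a group mean, and Smad1, Smad5 and Smad9 together 24.4% to 28.3%. These shares include Smad3, whose change has been given above, and were not tested.

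**Figure D4:**
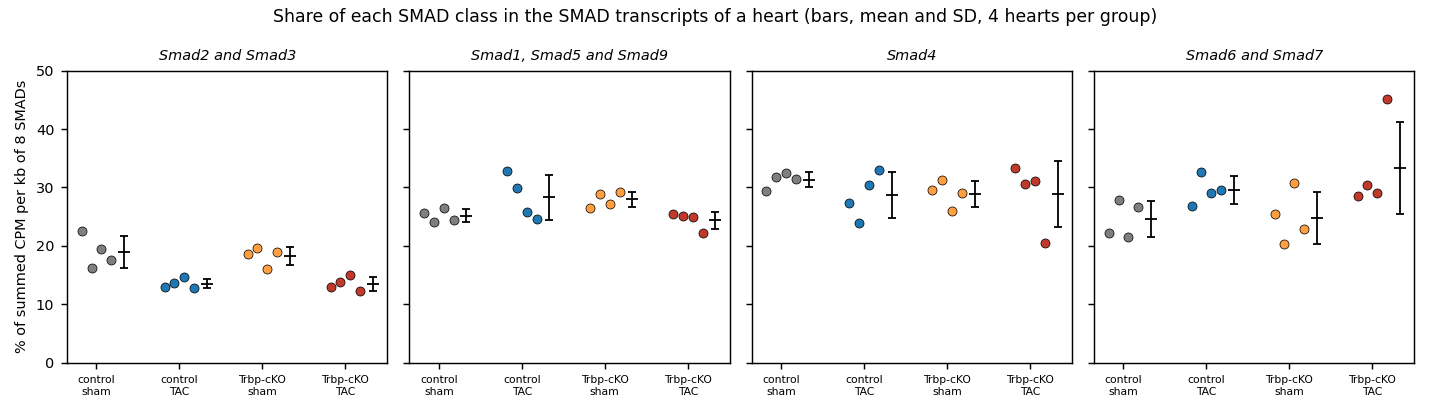
Share of each SMAD class in the summed CPM per kb of the 8 SMAD genes (y axis, %), in each heart by group (points; bars, mean and SD of 4 hearts). Smad2 and Smad3 together hold 12.2% to 15.0% in the 8 TAC hearts and 16.1% to 22.6% in the 8 sham hearts.

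Among the receptors upstream of the SMADs, 3 of 14 rose after TAC in Trbp-cKO hearts (9.94% of all genes passed) and 0 of 14 passed in control hearts (6.29%), a difference that was not past the threshold for any receptor in the interaction. None of 14 receptor and co-receptor genes passed after TAC in control hearts, where the most abundant, Eng (an endothelial co-receptor), had a value of 0.53 on the log2 scale (SE 0.25, adjusted p = 0.192). In Trbp-cKO hearts 3 rose: Tgfbr1, the type I TGF-β receptor, by 0.84 (SE 0.16, adjusted p = 0.0037), Tgfbr2, the type II receptor, by 0.41 (SE 0.10, adjusted p = 0.0174) and Bmpr2, the type II BMP receptor, by 0.36 (SE 0.09, adjusted p = 0.0233). With the clock score as a covariate 0 of 14 passed, and with only the 2 groups in the fit 1. The median over the 14 was 0.16 in control and 0.25 in Trbp-cKO hearts. Their summed CPM was 659 and 738 in the 2 high-mitochondrial control TAC hearts and 547 and 550 in the others of that group. Control sham hearts had 519 to 553 CPM. Trbp-cKO TAC replicates 1 to 4 had 625, 537, 585 and 753 CPM, against 470 to 570 CPM in Trbp-cKO sham hearts. No receptor passed between Trbp-cKO and control hearts after either surgery (0 to 2 after TAC when 1 heart was left out), and 0 of 14 passed the interaction, with 4 under an unadjusted 0.05 (15.4% of all genes). For the deletion effect averaged over both surgeries 1 of 14 receptors passed, against 5.45% of all genes, the type I activin receptor gene Acvr1b, at 0.38 (SE 0.10, adjusted p = 0.0412).

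Of the ubiquitin enzymes that act on SMADs, Ski and the receptors, some fell after TAC in control hearts and others rose in Trbp-cKO hearts. In control hearts 2 of 14 fell after TAC (6.29% of all genes passed): Nedd4l, a ligase for Smad2 and Smad3, by 0.59 (SE 0.12, adjusted p = 0.0135), and the deubiquitinase Usp11 by 0.41 (SE 0.10, adjusted p = 0.0274). In Trbp-cKO hearts 5 of 14 rose (9.94% of all genes passed), led by Wwp2 at 0.57 (SE 0.08, adjusted p = 0.000352) and Smurf2 at 0.69 (SE 0.11, adjusted p = 0.000864), with Smurf1, Trim33 and Rnf111, the ligase that degrades Ski and Skil, between 0.30 and 0.38. The count was 2 without Trbp-cKO sham replicate 1, 3 without sham replicate 3 or TAC replicate 1, 3 or 4, and 2 with the clock score as a covariate. The summed CPM of the 14 was 508 and 513 in the 2 high-mitochondrial control TAC hearts and 662 and 689 in the others of that group, against 633 to 708 in control sham hearts, and without those 2 hearts 0 of 14 passed in control hearts. Wwp2, Smurf2 and Smurf1 were also higher in Trbp-cKO than in control TAC hearts, by 0.38, 0.46 and 0.37 (adjusted p = 0.0134, 0.025 and 0.0366), a count of 3 of 14 (5.53% of all genes passed) that was 1 to 3 when 1 heart was left out and 1 without both high-mitochondrial hearts. In sham hearts none of the 14 passed between the kinds of mouse, and 0 of 14 passed the interaction, with 6 under an unadjusted 0.05 (15.4% of all genes). The median of that interaction was 0.38 over the 14 and -0.01 over all genes.

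Among 23 anchors, phosphatases and nuclear cofactors of SMADs, of which Foxh1 was too low to test, 4 passed for TAC in control hearts and 2 in Trbp-cKO hearts, against 6.29% and 9.94% of all genes. No call was left in control hearts without control TAC replicate 1, or in Trbp-cKO hearts without Trbp-cKO sham replicate 1 or 4. Tgif1, a homeodomain corepressor of Smad2, rose by 1.14 (SE 0.26, adjusted p = 0.021) after TAC in control hearts, beside Ctdspl and Zeb2, while the phosphatase gene Mtmr4 fell by 0.45 (SE 0.10, adjusted p = 0.0146). In Trbp-cKO hearts Ctdspl, a phosphatase gene of the small CTD family, rose by 0.66 (SE 0.17, adjusted p = 0.0235) and the endosomal anchor gene Zfyve16 by 0.44 (SE 0.12, adjusted p = 0.0322). For the deletion in sham hearts 2 passed, Ctdsp2 (0.39 higher, SE 0.09, adjusted p = 0.037) and Mtmr4 (fell by 0.48, SE 0.10, adjusted p = 0.0214), against 1.68% of all genes, and none passed in TAC hearts. That count of 2 was 0 with the clock score as a covariate and 0 to 2 when 1 heart was left out, and moved in 10 of those 16 fits.

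**Figure D5:**
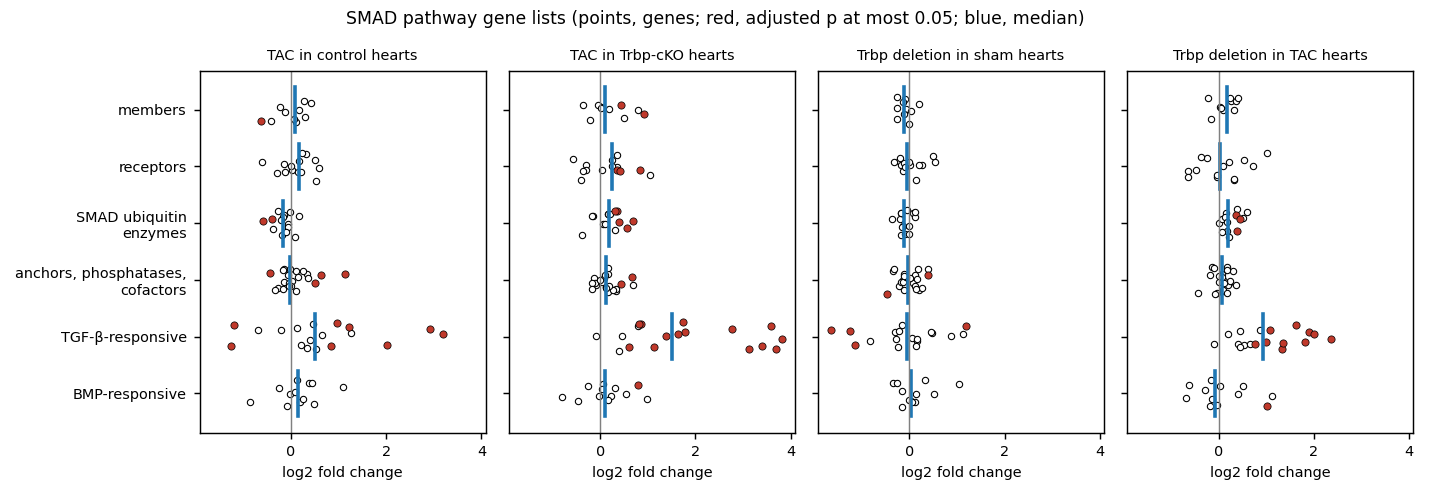
Log2 fold change of the 10 members and of 5 lists of pathway genes (rows) in the 4 comparisons of pairs of groups (panels); each point is a gene, red where the adjusted p was at most 0.05, and the blue line is the median. The TGF-β-responsive genes have medians of 0.50 and 1.51 after TAC in control and Trbp-cKO hearts, against 0.09 and 0.11 for the members.

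Most of the genes listed as responsive to TGF-β rose after TAC in Trbp-cKO hearts. Of 18, 6 rose and 2 fell after TAC in control hearts (median log2 fold change 0.50), and 14 rose after TAC in Trbp-cKO hearts (median 1.51), against 0.02 and -0.00 for all genes, of which 6.29% and 9.94% passed. The summed CPM of the 18 was 1869 and 2159 in the 2 high-mitochondrial control TAC hearts and 1130 and 1502 in the others of that group, against 1020 to 1247 in control sham hearts. Without those 2 hearts 2 of 18 passed in control hearts, and 3 to 10 when 1 heart was left out. Ccn2, a matricellular growth factor gene, rose by 3.82 (SE 0.255, adjusted p = 7.49e-07) in Trbp-cKO hearts, and Postn by 3.40 (SE 0.36, adjusted p = 3.47e-05). Between Trbp-cKO and control TAC hearts 10 of 18 were higher (median 0.93), against 5.53% of all genes. Acta2, the smooth muscle actin gene, was 2.35 higher there (SE 0.28), but it was among the genes that fell after TAC in control hearts, from 219.8 to 91.2 CPM, and it was at 498.6 CPM in Trbp-cKO sham and 465.8 CPM in Trbp-cKO TAC hearts. After sham surgery Acta2 was 1.18 higher in Trbp-cKO hearts, and Ccn2, Adam19 and Cdkn1a were lower by 1.25, 1.14 and 1.65, as 4 of 18 against 1.68% of all genes. With the clock score as a covariate 0 of 19955 genes passed for the deletion in sham hearts, so these calls ended, and the count was 0 to 4 when 1 heart was left out. The TAC effect on Ccn2 differed between the kinds of mouse, with an interaction of 3.16 (SE 0.33, adjusted p = 0.000604). Ltbp2, Postn and Fn1 also belong to the activated fibroblast markers.

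Genes that respond to BMP passed at about the rate of all genes. Of 12, 0 passed after TAC in control hearts (6.29% of all genes) and 1 in Trbp-cKO hearts (9.94%), the endothelial gene Tmem100, which rose by 0.79 (SE 0.18, adjusted p = 0.011). Tmem100 was also 1.02 higher in Trbp-cKO than in control TAC hearts (SE 0.18, adjusted p = 0.00491), as 1 of 12 against 5.53% of all genes, and 0 of 12 passed after sham surgery against 1.68%. Id3, an early BMP target, was 0.45 higher on the log2 scale after TAC in control hearts (SE 0.21, adjusted p = 0.192).

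The tested genes whose log2 CPM most resembled that of each member over the 16 hearts, by Pearson's r, were as follows. Ski was most like Elf4 (0.95) and Zfp185 (0.94), Skil like Nedd9 (0.93) and Adgra2 (0.92), and Smad7 like Mmp28 (0.91) and Rbms3 (0.90). Smad1 was most like Ewsr1 (0.96) and Rasip1 (0.96), the latter an endothelial gene, and Smad4 like Dnajb4 and Ddx23 (0.90 each). Smad3 had a weaker match in Bach1 (0.86) and Ubxn10 (0.82), and Smad6 in Rhob (0.83) and Sugt1 (0.80). Smad2 was most like Gm12791 (0.86) and Rasef (0.84), Smad5 like Ddx46 and Gm9833 (0.86 each), and Smad9 like AW209491 and Dusp10 (0.92 each). All hearts share their library, scaling and group with every gene compared, so these values are a description.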

How the data were processed

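Ventricular RNA of 16 mice was sequenced as paired reads of 150 bases. Per the methods and the submitters' processing notes, the authors used Cutadapt 2.3 for trimming, HISAT2 2.1.0 for alignment to GRCm38 and StringTie 1.3.4 for assembly, and deposited counts per gene. These deposited counts were derived from coverage with a script that takes a read length, and the value used and the annotation release are not given in the sources used here; a fit on counts divided by 2 covers a default of 75 bases. Gene symbols, positions and exon lengths were matched by identifier to GENCODE M21 for 55480 of 55573 genes. Promoter sequence is from RefSeq (GRCm38.p6).

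Counts were filtered with filterByExpr, scaled by TMM and fitted in edgeR 4.0.16 (R 4.3.3) with glmQLFit and glmQLFTest, robust, with 1 coefficient per group and all 16 hearts in 1 fit. P-values were adjusted by Benjamini-Hochberg over 19955 genes. A gene passed at an adjusted p of at most 0.05; the study's added threshold was an absolute log2 fold change of 0.8. The study states Fisher's exact test and CPM from edgeR; edgeR's exact test was an alternative here, beside DESeq2 1.42.0, other filters and scalings, a mitochondrial and a clock covariate, a replicate block and leaving out each heart. Leaving out both high-mitochondrial hearts, and overlap on library-size CPM, were added after seeing the data. Non-overlap of 2 groups of 4 corresponds to an exact two-sided permutation p of 0.0286, the smallest that 70 assignments allow. The fit was run on simulated counts for TAC in control hearts, drawn with 1 spread per gene in all groups. That simulation did not include the split seen among the control TAC hearts. Python 3.11.15 made the figures.

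The members and lists were chosen with earlier results of these data known. All 10 members were named. From each pathway list the genes that passed were named, up to 6 by smallest p, or else up to 2 of the highest mean CPM, and for each member the 2 genes of highest Pearson r. A gene of the TGF-β-responsive list is not reported here by name. Of the BMP-responsive genes, Id3 was singled out after its values were seen. Replicates were separate animals, and hearts with the same replicate number were treated as unpaired. The stated standard errors come from the fit and cover the spread between hearts.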

Additional observations from a re-analysis of the deposited data

Results flagged for a closer look

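Of 40 groups of 4 hearts tested for a single far heart (10 genes in 4 groups), 2 held one, both in Trbp-cKO TAC replicate 4. Smad1 was at 23.5 CPM there against 16.1 to 16.6 CPM in the other 3 hearts, with a gap of 0.921 of the range. Smad7 was at 55.8 CPM against 24.5 to 27.2 CPM, with a gap of 0.914 of the range. Chance flags about 1 in 20 independent groups; these 40 share hearts and are not independent. The same heart was the highest of its group for 8 of the 10 members, and the lowest for Smad4 and Smad9.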

How the results depend on the processing

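In all, 28 alternatives were run, 12 of them other than leaving out 1 heart. The 1 member that passed for TAC in control hearts became 0 with only the 2 groups in the fit, with the clock covariate and without both high-mitochondrial hearts, and 0 to 2 when 1 heart was left out. For TAC in Trbp-cKO hearts the 2 members became 1 with only the 2 groups and 0 with the clock covariate, and 0 to 3 when 1 heart was left out. The mitochondrial covariate gave 1 member for the deletion in sham hearts, 1 in TAC hearts and 1 for the average deletion effect (0 in each when any 1 heart was left out, as for the interaction). For the average TAC effect the 3 members became 1 (Smad3) without both hearts and 1 to 5 without 1 heart. For any difference among the groups the 3 became 1 with no filter, 5 with the mitochondrial covariate and 0 to 3 without 1 heart. The cause was not tested.

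Hearts with the same replicate number were treated as unpaired. Over 24 pairs of hearts with 1 number, deviations from the group means correlated from -0.43 to 0.21, and 3 pairs were over 0.1. Pairs with different numbers were not correlated, so whether the numbers pair hearts was not tested. With a replicate block, 0 members passed for TAC in control hearts, 2 for TAC in Trbp-cKO hearts, 2 for the average TAC effect and 0 for any difference.

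Some log2 values changed sign, none of them past the threshold. With the clock covariate, TAC in Trbp-cKO hearts gave Smad1 -0.20, Smad5 -0.11 and Smad9 0.068, the deletion in sham hearts Smad3 0.15, Smad5 0.19, Smad6 0.27, Smad7 0.53, Smad9 -0.35, Ski 0.18 and Skil 0.36, the deletion in TAC hearts Smad3 -0.077, and the interaction Smad3 -0.22, Smad6 -0.055, Smad7 -0.45 and Skil -0.12. With the mitochondrial covariate, TAC in control hearts gave Smad1 -0.037, the deletion Smad5 0.00051 in sham hearts and Smad1 0.31, Smad2 -0.056, Smad4 -0.17 and Smad9 -0.18 in TAC hearts, and the interaction Smad1 0.23 and Smad9 -0.30. Without both high-mitochondrial hearts, TAC in control hearts gave Smad1 -0.10 and Smad4 0.0095, the deletion in TAC hearts Smad1 0.13, Smad2 -0.071 and Smad4 -0.10, the interaction Smad1 0.11 and Smad9 -0.094, and the average TAC effect Smad1 -0.038. Library size as the only scaling, which moved the median of all genes to 0.11 and 0.13 for the deletion in sham and TAC hearts, gave Smad2 0.00024 for TAC in Trbp-cKO hearts and Smad5 0.082 and Ski 0.018 for the deletion in sham hearts. A filter of 1 CPM in 4 hearts gave Smad3 -5.72e-05 for the deletion in TAC hearts.

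When 1 heart was left out, TAC in Trbp-cKO hearts spanned -0.13 to 0.14 for Smad1 and -0.016 to 0.086 for Smad5, and TAC in control hearts -0.059 to 0.20 for Smad6. The deletion in sham hearts spanned -0.088 to 0.11 for Smad1, -0.071 to 0.0040 for Smad5 and -0.39 to 0.038 for Smad7, and in TAC hearts -0.052 to 0.12 for Smad3, -0.011 to 0.12 for Smad4 and -0.12 to 0.42 for Smad7. The average TAC effect on Smad4 spanned -0.0037 to 0.056. The counts of pathway genes that passed also moved, given here for receptors, ubiquitin enzymes, cofactors (with anchors and phosphatases), TGF-β-responsive and BMP-responsive genes in turn. When 1 heart was left out they were 0 to 1, 0 to 2, 0 to 4, 3 to 10 and 0 to 1 for TAC in control hearts and 2 to 4, 2 to 6, 0 to 2, 11 to 15 and 1 to 2 for TAC in Trbp-cKO hearts. For the deletion they were 0, 0, 0 to 2, 0 to 4 and 0 in sham hearts and 0 to 2, 1 to 3, 0, 7 to 11 and 1 to 2 in TAC hearts. Under the other alternatives they were 0 to 1, 0 to 2, 0 to 4, 2 to 11 and 0 to 1 for TAC in control hearts, 0 to 7, 2 to 6, 0 to 6, 9 to 17 and 0 to 3 for TAC in Trbp-cKO hearts, 0 to 1, 0 to 2, 0 to 5, 0 to 9 and 0 to 1 for the deletion in sham hearts, and 0 to 4, 0 to 4, 0 to 3, 2 to 16 and 1 to 3 for it in TAC hearts. Smad9, with 1.24 to 3.21 CPM, rests on the fewest counts.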
